A study of Bos taurus with 16 samples.

Results

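The transcripts described here are the microRNA genes whose array signal in bovine liver reached a set mean. Whether that mean marks the limit of detection was not tested. They were taken as every array entry with a microRNA gene symbol whose mean log2 signal over all 16 cows was 5 or more, which gave 250 of the 567 microRNA genes on the array (44.1%) and left 317 below that mean. The array holds 20421 transcript clusters in all, a transcript cluster being the group of probes that reports 1 gene. Of the clusters that are not microRNA, 79.0% had a mean of 5 or more.

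Hepatic FGF21, a hormone that the liver makes under energy shortage and other stress, differs widely between dairy cows after calving, and the study compared the livers of cows at both ends of that range. Liver biopsies of multiparous Holstein cows were taken at week 1 postpartum, and 1 array was run per cow. In the *FGF21* high group (high group below) were the 8 cows whose livers expressed most *FGF21*, and in the *FGF21* low group (low group) the 8 whose livers expressed least, out of cows that had needed no medical treatment. All 16 cows ate the same total mixed ration, and no treatment set the groups apart. *FGF21* had a log2 signal of 7.28 ± 0.82 in the high group and of 5.20 ± 0.30 in the low group (SD, n = 8 each), which is a description, since the cows were chosen on it.

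MicroRNAs are short RNAs that guide a silencing complex to messenger RNAs, which are then degraded or translated less. Each is cut from a hairpin in a longer primary transcript, first in the nucleus and then in the cytoplasm, and many hairpins lie in introns of other genes or next to further microRNA hairpins. In mammalian liver a few microRNAs, *MIR122* above all, are known for their part in lipid metabolism and in keeping the hepatocyte's identity.

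The array reports RNA of the hairpin region and of any longer transcript that holds it, not the mature microRNA alone. The median annotated length of the 250 clusters was 78 bases, with a range from 54 to 2849 bases. They were read by a median of 17 probes (range 1 to 25), and 10 of them had fewer than 5 probes. Signals depend on the probes, so a mean signal says little about the amount of one microRNA against another, and levels are compared between cows. The mean signal over the 250 microRNAs lay between 6.24 and 6.47 in the cows of the high group and between 6.33 and 6.50 in those of the low group, so the groups overlapped.

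Few of the 250 microRNAs differed between the 2 groups. None passed a threshold of 0.05 after Benjamini-Hochberg adjustment over all clusters in limma, where 0.0294% of all clusters did, and the smallest adjusted p of a microRNA was 0.254. At an unadjusted p under 0.05, 19 microRNAs (7.60%) differed, against 7.42% of all clusters. Of these, 3 were higher in the high group, against 2.89% of all clusters, and 16 were lower, against 4.52% of all clusters. With a fold above 1.2 in addition, the 3 higher ones were kept (1.29% of all clusters) and 9 lower ones (1.54% of all clusters). No microRNA of the 250 had groups without overlap, against 0.0539% of all clusters. Of the 250 microRNAs, 9 had a mean below 5 in 1 of the groups, and among the other 241 there were 3 higher and 14 lower (7.05% in all). By two-sided exact permutation 12 of the 250 had a p under 0.05 (4.8%, against 7.26% of all clusters), 1 higher (2.85% of all clusters) and 11 lower (4.42% of all clusters). The count of 16 fell to 9 without cow 1 of the low group, and the count of 3 lay between 1 (without cow 1 of the high group or cow 3 of the low group) and 7 (without cow 6 of the high group). Without cow 1 of the low group the count over all clusters fell as well, from 1515 to 1228. That count was 1290 without cow 1 of the high group and 1421 without cow 3 of the low group. Without cow 6 of the high group it was 1447.

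The log2 differences ran from -0.80 to 1.00 with a median of -0.03, beside -0.02 over all clusters. They were negative for 159 microRNAs (63.6%, against 56.6% of all clusters) and positive for 91. The median within-group SD of a microRNA was 0.23, wider than the 0.18 of all clusters. For 236 of the 250 microRNAs the 95% interval of the difference lay inside a fold of 1.5 in either direction, and for the other 14 it reached beyond it.

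**Figure D1:**
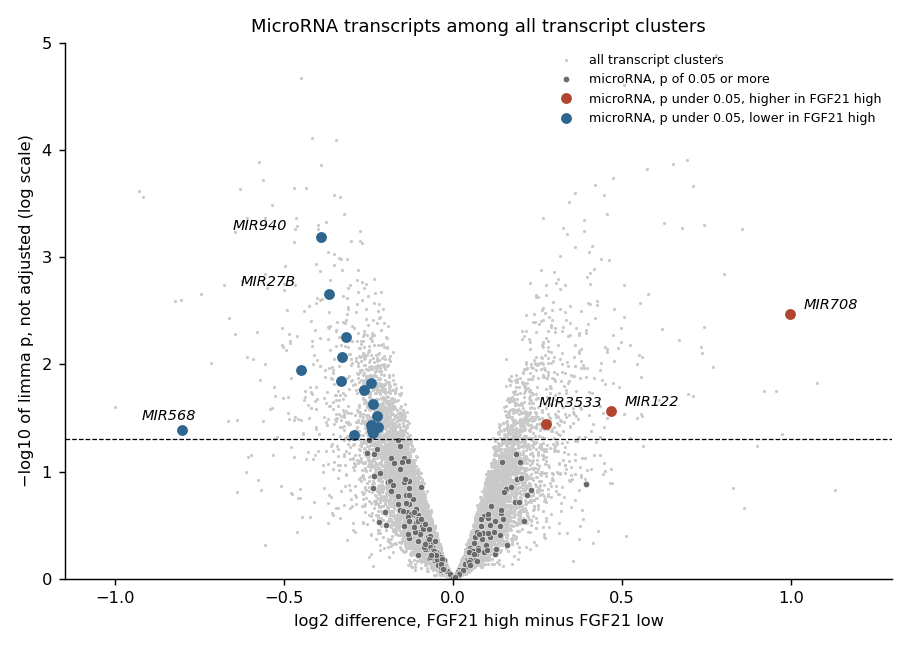
Log2 difference between the groups (x axis, *FGF21* high minus *FGF21* low) against −log10 of the unadjusted limma p (y axis) for the 250 microRNAs over all transcript clusters in grey; 9 clusters lie outside the plotted range and the dashed line marks a p of 0.05. The 16 microRNAs below 0.05 on the left lie among the grey points, and *MIR708*, at 1.00, stands farthest to the right of the 3 on the other side.

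*MIR708* had the largest difference of all 250 microRNAs. It is known from mouse cells as a microRNA that the stress factor CHOP, the product of *DDIT3*, induces together with the gene that hosts it, *TENM4*, a teneurin of the cell surface. The array places it on chromosome 29 from 16686224 to 16686332 on the plus strand. In the high group its lowest log2 signal was 5.70, its median 6.77 and its highest 7.81. In the low group the lowest was 4.93, the median 5.92 and the highest 6.77. The groups thus overlapped: 7 of 8 high-group cows exceeded the mean of the low group, and cow 4 of the low group lay at the median of the other group. The log2 difference was 1.00 ± 0.30 (standard error), with an unadjusted limma p of 0.00341, an adjusted p of 0.452 and a two-sided exact permutation p of 0.0140. Its within-group SDs of 0.72 and 0.68 were far above the median of 0.23 over the 250 microRNAs. Its unadjusted p stayed below 0.05 in all 16 fits that left out 1 cow.

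*MIR122*, the microRNA best known from hepatocytes, was the second of the 3 higher ones. The array places it on chromosome 24 from 58095642 to 58095726 on the plus strand, with no other gene around it in the reference annotation. Its log2 signal in the high group ran from 7.17 over a median of 8.40 to 8.81, and in the low group from 7.30 over 7.81 to 8.45. All but 1 cow of the high group lay close together at the upper end, and cow 3, at 7.17, was the lowest of all 16. The log2 difference was 0.47 ± 0.20 (standard error; unadjusted limma p = 0.0274, adjusted p = 0.630), and the two-sided exact permutation p was 0.0594. The unadjusted limma p rose above 0.05 in 5 of the 16 fits that left out 1 cow, namely cow 1 or 5 of the high group or cow 2, 3 or 8 of the low group, with 0.0628 as its highest value.

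The third, *MIR3533*, had a log2 difference of 0.27 ± 0.12 (standard error; limma adjusted p = 0.637, exact permutation p = 0.0575). Its cluster spans 2849 bases, the longest of the 250, and the RefSeq annotation places it in *ACTG1*, the gene of cytoplasmic gamma actin, which has no cluster of its own on the array. Its signal therefore cannot be assigned to a microRNA.

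**Figure D2:**
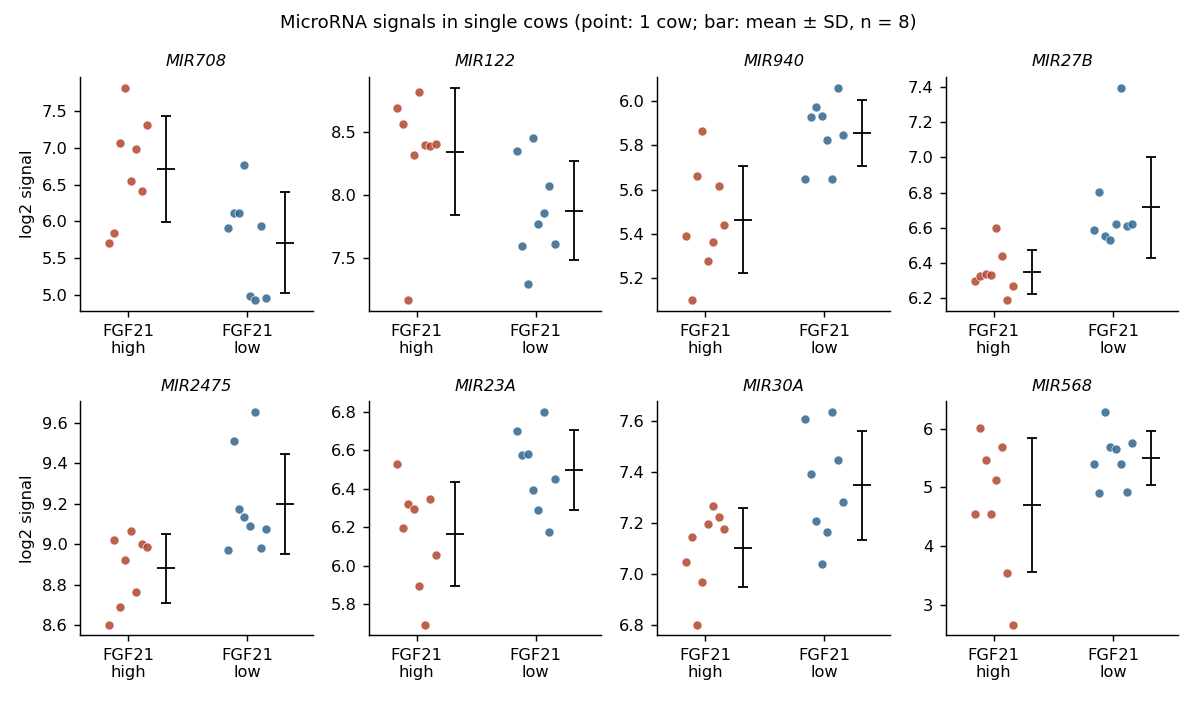
Log2 signal of 8 microRNAs in single cows of the *FGF21* high and the low group, each point 1 cow, with the mean and SD (n = 8) beside them; each panel has its own y axis. The *MIR708* points of both groups spread over more than 1 log2 unit, the *MIR27B* points of the low group lie between 6.53 and 6.81 except cow 6 at 7.40, and *MIR568* reaches down to 2.65 in the high group.

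Among the 16 lower microRNAs, *MIR27B* and *MIR2475* come from 1 stretch of chromosome 8. *MIR27B* is known from human and mouse liver as a regulator of lipid metabolism genes. It lies from 83009823 to 83009919 on the plus strand, and *MIR2475* from 83008954 to 83009024 on the same strand, inside the transcript *C8H9orf3*, which encodes an aminopeptidase. The log2 signal of *MIR27B* ran from 6.18 over a median of 6.33 to 6.60 in the high group. In the low group it ran from 6.53 over 6.62 to 7.40. Only cow 5 of the high group reached into the range of the low group, and all 8 cows lay below the mean of the latter. The log2 difference was -0.37 ± 0.10 (standard error; unadjusted limma p = 0.00223, adjusted p = 0.417), with a two-sided exact permutation p of 0.000622.

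*MIR2475*, a microRNA known from cattle, ran from 8.60 over a median of 8.95 to 9.06 in the high group and from 8.97 over 9.11 to 9.65 in the low group. Again all 8 cows of the high group lay below the mean of the other group, and the ranges shared the stretch from 8.97 to 9.06. Its log2 difference was -0.32 ± 0.10 (standard error; limma adjusted p = 0.496, exact permutation p = 0.00482). The neighbours *MIR23B* and *MIR24-1*, whose means of 3.96 and 4.19 kept them out of the 250, had log2 differences of -0.39 ± 0.21 and -0.48 ± 0.24 (standard error; limma adjusted p = 0.723 and adjusted p = 0.689). All 4 microRNAs of this stretch of 1491 bases had negative differences, and their host *C8H9orf3* had one of -0.19 ± 0.13 (limma adjusted p = 0.776).

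A second copy of that microRNA block lies on chromosome 7 and holds *MIR23A*, *MIR27A* and *MIR24-2* within 401 bases. There *MIR23A*, the only one of the 3 with a mean of 5 or more, ran from 5.69 over a median of 6.25 to 6.53 in the high group and from 6.18 over 6.51 to 6.80 in the low group. Its log2 difference was -0.33 ± 0.11 (standard error; limma adjusted p = 0.538, exact permutation p = 0.0160). Its neighbours did not share the sign: *MIR27A* had a difference of 0.10 ± 0.10 and *MIR24-2* one of 0.07 ± 0.10 (standard error; limma adjusted p = 0.875 and adjusted p = 0.918). Copies of 1 microRNA in different places, such as *MIR27A* and *MIR27B*, share much of their sequence, and the array's probes may not keep them apart.

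*MIR940* had the smallest p of all 250 microRNAs. It is read by 5 probes on chromosome 25, from 1792865 to 1792957 on the plus strand. Its log2 signal ran from 5.10 over a median of 5.42 to 5.87 in the high group and from 5.65 over 5.89 to 6.06 in the low group. Cow 4 of the high group was the only one of its group above the mean of the other. The log2 difference was -0.39 ± 0.10 (standard error; unadjusted limma p = 0.000647, adjusted p = 0.254), and the two-sided exact permutation p was 0.00280.

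*MIR30A*, of a microRNA family that is widely expressed in mammalian tissues, ran from 6.80 over a median of 7.16 to 7.27 in the high group and from 7.04 over 7.34 to 7.63 in the low group. Its log2 difference was -0.24 ± 0.09 (standard error; limma adjusted p = 0.573, exact permutation p = 0.0197). Of the 6 *MIR30* genes on the array, 4 had a negative difference: besides *MIR30A*, *MIR30B* (-0.11), *MIR30C* (0.00 after rounding) and *MIR30D* (-0.21), whose means lay below 5. *MIR30E* and *MIR30F* had differences of 0.03 and 0.11. *MIR200B*, which holds epithelial cells in their state by restraining ZEB factors, had a difference of -0.22 (exact permutation p = 0.0553). Its mean was 4.95 in the high group and 5.17 in the low group, so it was among the 250 only through its higher group. *MIR200A* beside it, at a mean of 4.84, had one of -0.22 (limma adjusted p = 0.650), and *MIR429*, the remaining microRNA of that block, one of 0.15 (limma adjusted p = 0.771).

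*MIR431* belongs to the imprinted region on chromosome 21 and lies opposite the retrotransposon-derived gene *RTL1*. It had a log2 difference of -0.24 (exact permutation p = 0.0274), and the highest cow of the high group, at 6.30, lay barely above the lowest of the low group, at 6.23. On X, *MIR502A-1* differed by -0.22 (exact permutation p = 0.0421), whereas *MIR188*, *MIR502B* and *MIR500* of the same block differed by -0.03, -0.03 and -0.04. *MIR105B*, in an intron of the GABA receptor gene *GABRA3*, differed by -0.33 (exact permutation p = 0.0295). *MIR449B*, in the RefSeq gene *CDC20B* and known from cells with many cilia, differed by -0.24 (exact permutation p = 0.0538).

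The remaining 6 lower microRNAs were *MIR339B* (log2 difference -0.45, exact permutation p = 0.0286), *MIR2410* (-0.26, p = 0.0249), *MIR2403* (-0.24, p = 0.0606), *MIR2460* (-0.24, p = 0.0617), *MIR2305* (-0.30, p = 0.0766) and *MIR568*. *MIR568* is read by 3 probes, was among the 250 only through the low group (means 4.70 and 5.50) and had the widest spread of all 250 microRNAs. Its log2 signal ran from 2.65 over a median of 4.84 to 6.02 in the high group and from 4.90 over 5.53 to 6.28 in the low group. The log2 difference of -0.80 ± 0.37 (standard error; limma adjusted p = 0.652, exact permutation p = 0.0810) became -0.51, with an unadjusted p above 0.05, without cow 8 of the high group.

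Of the 19 microRNAs, 9 kept an unadjusted limma p under 0.05 in all 16 fits that left out 1 cow: *MIR940*, *MIR27B*, *MIR708*, *MIR2475*, *MIR23A*, *MIR339B*, *MIR105B*, *MIR30A* and *MIR2410*. With the running number of the sample descriptions as a covariate, 4 of the 19 were no longer under 0.05: *MIR2410*, *MIR502A-1*, *MIR200B* and *MIR449B*. The lowest running numbers belong to the high group and the highest to the low group, so this covariate is partly tied to the group. The 9 kept in all 16 fits, *MIR431* and *MIR502A-1* had a two-sided exact permutation p under 0.05, 11 of the 19. The smallest p that the 12870 assignments of the cows can give is 0.000155.

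Differences of the genes that contain a microRNA were read from the same fit. On the same strand, 123 of the 250 microRNAs lay inside another transcript of the array annotation and 19 more inside a gene of the RefSeq annotation that the array measures, 142 in all with 128 different hosts. Another 19 lay inside a gene of the opposite strand, 43 in a gene without a cluster of its own and 45 in no gene, and 1 was not matched by symbol. The sign of the microRNA's difference was that of its host in 72 of 142 pairs (50.7%). The host differences ran from -0.38 to 0.26, and 12 of the 142 microRNAs (8.45%) had a host with an unadjusted limma p under 0.05, against 7.42% of all clusters.

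Of the 19 microRNAs with an unadjusted p under 0.05, 11 had a host on the array, and in 2 pairs the host was below 0.05 too. *MIR2460* lay in *FGF1*, a fibroblast growth factor that acts close to its source, which had a log2 difference of -0.34 (limma adjusted p = 0.632) beside -0.24 of the microRNA. *MIR568* lay in *ZBTB20*, a zinc finger repressor of alpha-fetoprotein in mouse liver, which differed by -0.17 (limma adjusted p = 0.628). *TENM4*, the host of *MIR708*, differed by -0.04 ± 0.16 (standard error; 95% interval -0.37 to 0.30), while its microRNA differed by 1.00.

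**Figure D3:**
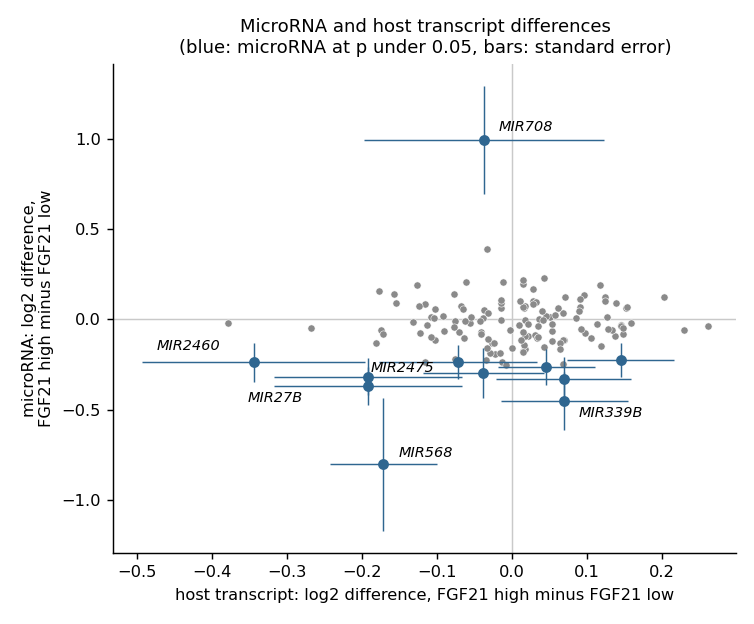
Log2 difference of each microRNA (y axis) against that of its host transcript (x axis) for the 142 microRNAs with a host on the array, with the 11 at an unadjusted p under 0.05 in blue and bars of 1 standard error. The grey points scatter around 0 on both axes, and *MIR708* lies at 1.00 over a host difference of -0.04.

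Within the groups the cows with more *MIR708* were compared with those with more *TENM4*. In the high group Pearson's r was 0.80 (two-sided exact permutation p = 0.0206, adjusted over 10 relations 0.206) and Spearman's rho was 0.74 (p = 0.0458, adjusted 0.288). In the low group r was 0.53 (p = 0.181, adjusted 0.361) and rho was 0.55 (p = 0.171, adjusted 0.486). Without the 2 cows farthest from the median *TENM4* signal, r was 0.87 in the first and 0.31 in the second. Neither relation passed the adjustment.

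With *FGF21* itself, r was -0.18 in the high group (p = 0.667, adjusted 0.741; rho -0.02, p = 0.977) and 0.53 in the low group (p = 0.187, adjusted 0.361; rho 0.38, p = 0.360). The first became 0.73 without the 2 cows farthest from the median, so its sign rested on them. The cow with the highest *FGF21* signal, 8.69, had the lowest *MIR708* signal of its group, 5.70. With the ER stress genes *DDIT3*, *ATF4* and *HSPA5*, r ranged from -0.68 for *HSPA5* in the low group (exact permutation p = 0.0576, adjusted 0.288) to 0.60 for *ATF4* in the high group (p = 0.118, adjusted 0.361), and none of the 6 relations passed. The signs were opposite between the groups for *ATF4* and *DDIT3*. Without the 2 cows farthest from the median *HSPA5* signal, r with *HSPA5* was -0.97 in the low group and 0.06 in the high group.

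**Figure D4:**
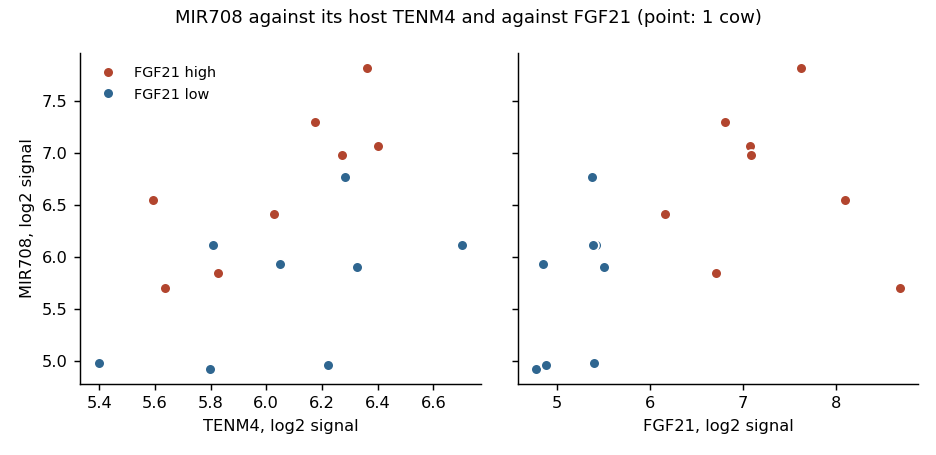
Log2 signal of *MIR708* (y axis) against that of *TENM4* and of *FGF21* (x axes), each point 1 cow. In the left panel r is 0.80 in the high group and 0.53 in the low group, and in the right panel the cow at 8.69 on the *FGF21* axis has a *MIR708* signal of 5.70.

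MicroRNAs known from liver were measured for 8 genes, of which 5 had a mean of 5 or more. Apart from *MIR122*, none had an unadjusted p under 0.05: *MIR192*, another microRNA of hepatocytes, differed by 0.15 (95% interval -0.13 to 0.43), *MIR885* by 0.10, *MIR101-1* by -0.13 and *MIR101-2* by -0.22. The median of the 5 differences was 0.10. *MIR148A* and *MIR194-2*, also known from liver, had means of only 2.19 and 3.21, so this array gave little signal for them.

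For microRNAs known from the ER stress response, 5 of 12 had a mean of 5 or more, and *MIR708* was the 1 of them with an unadjusted p under 0.05. The other 4, *MIR346*, *MIR214*, *MIR125B-2* and *MIR211*, differed by -0.01, -0.10, -0.11 and -0.13, and the median of the 5 was -0.10. For microRNAs known from lipid metabolism or from control of the FGF21 coreceptor in mice, 4 of 14 had a mean of 5 or more. Of these 4, *MIR27B* was the 1 with an unadjusted p under 0.05. Below that mean, *MIR103-2* had such a p too (log2 difference -0.44, limma adjusted p = 0.601). *MIR33B*, which lies in the sterol regulator gene *SREBF1* and restrains cholesterol export, differed by 0.01 (95% interval -0.21 to 0.23), *MIR107* by 0.02 and *MIR370* by -0.07.

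Of the inflammation microRNAs, 3 of 13 had a mean of 5 or more, and none of these 3 had an unadjusted p under 0.05. Below that mean, *MIR146B* had such a p (log2 difference -0.20, limma adjusted p = 0.630). *MIR21* differed by 0.08 (95% interval -0.13 to 0.30), *MIR212* by 0.00 and *MIR181A-2* by -0.20. The let-7 family with *MIR98*, which holds back growth genes, had 5 of 12 at a mean of 5 or more with differences from -0.20 to 0.14, and none was below 0.05. The *MIR17* relatives, known from growing cells, had 4 of 14 there with a median of -0.09, and none was below 0.05. Copies of a let-7 microRNA are nearly alike, and the probes may not keep them apart.

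**Figure D5:**
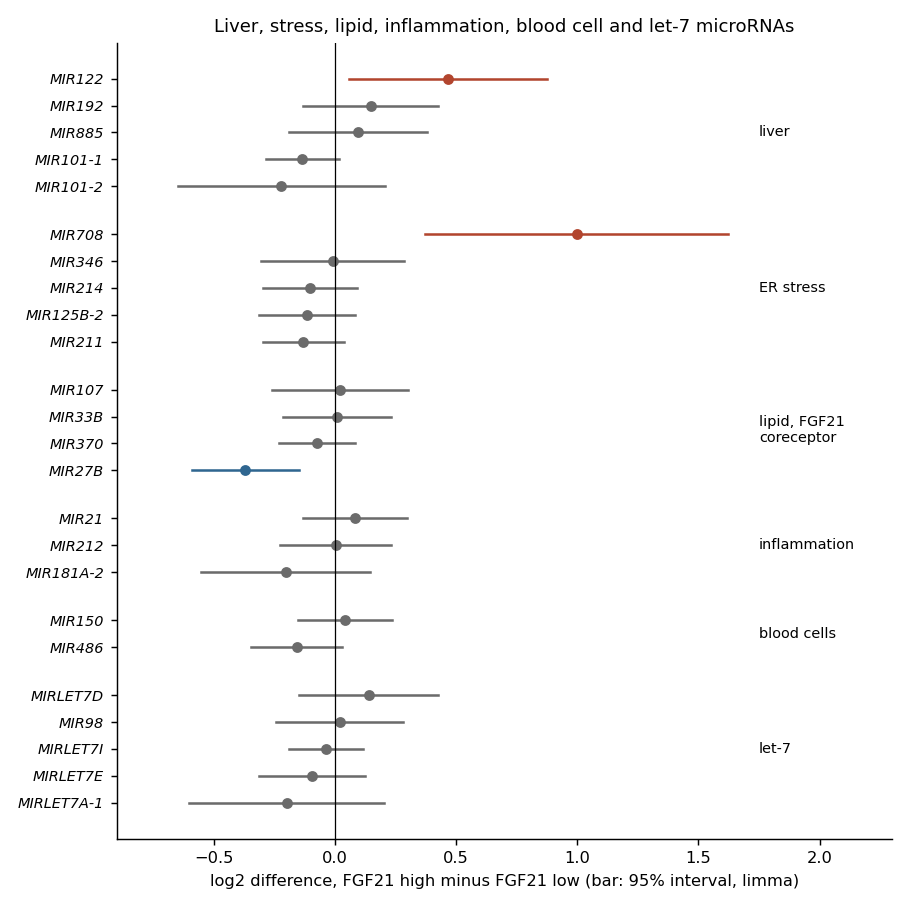
Log2 difference between the groups (point) with its 95% interval (bar) for the microRNAs of 6 lists with a mean of 5 or more, red where higher and blue where lower at an unadjusted p under 0.05. The intervals of *MIR122*, *MIR708* and *MIR27B* do not include 0, and those of the rest do.

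MicroRNAs of other cell types were measured next to these. None of the 9 muscle microRNAs reached a mean of 5. Blood cell microRNAs had 2 of 6 there, endothelial 1 of 5, stromal and smooth muscle 3 of 6 and neural 3 of 9. None of those at a mean of 5 or more had an unadjusted p under 0.05. Below that mean, *MIR144* of blood cells (log2 difference 0.28, limma adjusted p = 0.565) and *MIR208A* of muscle (0.27, limma adjusted p = 0.629) had such a p. The epithelial and bile duct microRNAs had 2 of 7 there, *MIR200B* at -0.22 and *MIR375* at -0.08.

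The hepatocyte messenger RNAs *ALB*, *TTR*, *APOA1*, *SERPINA1* and *FGB* had a mean log2 signal of 12.2 to 12.4 in every cow of either group, and 1 of them, the lipoprotein gene *APOA1*, had an unadjusted p under 0.05 (log2 difference -0.31, limma adjusted p = 0.637). The muscle genes lay at 4.12 to 4.71 in the high group and at 4.35 to 4.71 in the low group, and the neuron genes at 4.89 to 5.38 and 4.98 to 5.28. The mean of the endothelial genes *PECAM1*, *VWF*, *STAB2* and *LYVE1* lay at 8.02 to 8.46 and at 7.84 to 8.33, all 4 differences were positive and 1, that of *LYVE1*, had an unadjusted p under 0.05 (log2 difference 0.38, limma adjusted p = 0.522). The other lists overlapped too: macrophage genes at 8.21 to 9.18 and 8.27 to 8.83, stellate cell and fibroblast genes at 6.44 to 7.11 and 6.48 to 7.32, leukocyte genes at 6.35 to 6.87 and 6.51 to 6.95, erythroid genes at 5.67 to 6.10 and 5.77 to 6.20 and bile duct genes at 5.48 to 6.32 and 5.67 to 6.09. All 3 macrophage differences were positive as well (median 0.16, endothelial median 0.13), and all 4 stellate cell and fibroblast differences were negative (median -0.19). None of these macrophage, stellate cell and fibroblast genes had an unadjusted p under 0.05. The leukocyte, erythroid and bile duct lists held differences of both signs. The part of the cell makeup in the microRNA differences was not tested, and in a biopsy fewer cells of a type and less RNA per cell cannot be told apart.

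The genes that make and use microRNAs were read beside the 7.42% of all clusters with an unadjusted p under 0.05. None of the 12 genes of nuclear processing and export, among them the nuclease *DROSHA* (log2 difference 0.08) and its partner *DGCR8* (-0.01), had such a p, with a median difference of 0.04. None of the 8 genes of dicing and loading had one either, with *DICER1*, which cuts the hairpin's loop, at 0.07 and *AGO2*, the slicing argonaute, at 0.03. Of 13 silencing complex genes 1 was below 0.05, *CNOT1*, the scaffold of the CCR4-NOT deadenylase, at 0.29 ± 0.11 (standard error; limma adjusted p = 0.576). None of the 11 decay and tailing genes was below 0.05, and their median difference was -0.02.

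The 10 microRNAs with the highest mean signal, the quantity that chose the 250 and one that depends on the probes, were *MIR3533*, *MIR2887-1*, *MIR2350*, *MIR2315*, *MIR2475*, *MIR2348*, *MIR2411*, *MIR2373*, *MIR2454* and *MIR2450B*, with means from 8.52 to 10.67. Besides *MIR3533* and *MIR2475*, none had an unadjusted p under 0.05. *MIR2411*, in *UBAP2L*, differed by 0.39 with a 95% interval from -0.13 to 0.92, and its signal ran from 8.08 to 10.45 in the high group and from 8.05 to 8.90 in the other.

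Just inside the threshold lay *MIR128-2*, *MIR1307* and *MIR758*, with means of 5.01, 5.01 and 5.01, and just outside it *MIR2390*, *MIR16A* and *MIR138-2*, each at 4.99. Of the 317 microRNAs below the threshold, 10 were higher and 10 lower at an unadjusted p under 0.05 (3.15% each), and their median log2 difference was 0.00.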

How the data were processed

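Liver RNA of 16 cows, 8 per group, was measured on Affymetrix whole-transcript arrays, 1 per cow, with groups and replicate numbers from the sample labels. The authors deposited log2 signals per transcript cluster, made in Affymetrix Expression Console 1.4 by RMA after a signal space transformation, so they are background-corrected, quantile normalized between arrays and summarised over probes. The same sheet holds annotation and the authors' own group means, fold changes and p-values, which were not used. The deposited value table holds the same log2 signals rounded to 2 decimals (largest difference 0.005). Array medians lay between 6.25 and 6.34. Arrays have no read depth, so their number limits the precision. RNA integrity was given only as 1 mean and SD over samples, not per cow. The paper reads that value as a sign of some RNA degradation, which can limit the sensitivity and specificity of the arrays. It held the integrity sufficient to run them. For the array's coordinates, the genome build was not given in the sources used here.

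All 20421 clusters entered limma (version 3.58.1, R 4.3.3) with group as its single term and default lmFit and eBayes, and the Benjamini-Hochberg adjustment ran over all of them. Unadjusted p under 0.05 and a fold above 1.2 are the criteria of the methods. Single microRNAs were also compared by exact two-sided permutation over all 12870 assignments of the cows, and relations within a group over all 40320 pairings. A difference is the mean of the *FGF21* high group minus that of the *FGF21* low group. Each microRNA symbol had 1 cluster. Hosts are transcripts of the array annotation that contain the microRNA on its strand (the one with the highest mean), or else the containing gene in RefSeq's ARS-UCD2.0 annotation, which was used for names and containment only and matched 249 of 250 symbols. Neighbours are microRNAs within 10 kb. The fit was tested on simulated data. The rest was done in Python 3.11.15 (pandas 2.3.3, numpy 2.4.6, matplotlib 3.10.9, scipy 1.17.1).

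Named are microRNAs at an unadjusted p under 0.05, the 10 with the highest mean, the 3 nearest the threshold on either side, those of the microRNA lists, their hosts, biogenesis genes at an unadjusted p under 0.05, and *FGF21*. The neighbours of named microRNAs, the other *MIR30* genes, microRNAs added by an alternative, *DROSHA*, *DGCR8*, *DICER1* and *AGO2* were added after their values were seen. The microRNAs and all lists were chosen with earlier results of these data known. Alternatives were other tests, weights, scalings, thresholds, a covariate, a replicate block and leaving out each cow.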

Additional observations from a re-analysis of the deposited data

Results flagged for a closer look

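In the 19 microRNAs with an unadjusted p under 0.05, each group of 8 cows was searched for a highest or lowest cow set far apart from the rest by Dixon's criterion. Of the 38 groups searched, 2 held such a cow, and chance gives about 1 in 20.

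For *MIR27B*, cow 6 of the *FGF21* low group had a log2 signal of 7.40, while the other 7 cows lay between 6.53 and 6.81. Without it the log2 difference was -0.27 in place of -0.37, and the unadjusted limma p stayed under 0.05. For *MIR122*, cow 3 of the *FGF21* high group had a log2 signal of 7.17, while the other 7 cows lay between 8.32 and 8.81. Without it the log2 difference was 0.64 in place of 0.47.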

How the results depend on the processing

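No difference of the 19 microRNAs changed sign under any alternative. No microRNA passed the adjusted threshold in limma, in limma with other weights, scalings, priors or covariates, or in the t-type tests. In the main limma fit 19 were below an unadjusted p of 0.05 (7.6%, against 7.42% of all clusters). Counts at an unadjusted p under 0.05 moved, from 3 higher, 16 lower and 19 in all, and with a fold above 1.2 from 3 higher and 9 lower. The methods' t-test and Welch's test each gave 1 higher (also 1 with the fold) and 12 in all (4.8%, against 7.17% and 6.84% of all clusters). Both kept 11 of the 19, lost *MIR122*, *MIR3533*, *MIR449B*, *MIR200B*, *MIR2403*, *MIR568*, *MIR2460* and *MIR2305*, and added *MIR25*. Among clusters above the median signal there were 9 lower, 11 in all and 5 lower with the fold, since fewer microRNAs were tested. The 11 were 9.73% of the 113 microRNAs there, against 8.63% of all clusters there. A threshold mean of 4 gave 6 higher (6 with the fold) and 30 in all, and a mean of 6 gave 10 lower and 5 lower with the fold, since the sets differ. For the thresholds of 4 and 6, shares of the set and of all clusters at the same mean are not given here. Those counts are therefore not compared with the 7.42% of all clusters.

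Leaving out 1 cow gave 1 to 7 higher, 9 to 21 lower and 12 to 25 in all, and with the fold 1 to 7 higher and 7 to 14 lower; the 14 came without cow 3 of the high group and the 9 and 12 without cow 1 of the low group. Over all clusters, 1515 had an unadjusted p under 0.05 with every cow. The fits without 1 cow gave 1228 (without cow 1 of the low group) to 1952 (without cow 7 of the high group). Hosts below 0.05 beside such a microRNA numbered 1 in place of 2 with the array annotation alone, an alternative chosen after seeing the data. Relations of *MIR708* moved without the 2 cows farthest from the median of the other measure: for *FGF21* in the high group to 0.73, for *DDIT3* to -0.02 in the high and 0.30 in the low group, and for *ATF4* in the low group to -0.18. The cause was not tested.

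Replicate numbers are shared between the groups, but same-numbered cows did not deviate together (correlations -0.21 to 0.13, 1 of 8 over 0.1). Of the 8 cows of the high group, 0 correlated best with the low-group cow of their own number. The low-group cows were not checked in this way. With the replicate number as a block, 3 microRNAs were higher, 12 lower (6.0% in all, against 7.2% of all clusters) and 0 passed the adjustment. The block kept 13 of the 19, lost *MIR3533*, *MIR449B*, *MIR200B*, *MIR2403*, *MIR2460* and *MIR2305*, and added *MIR1777B* and *MIR2422*. With the running number as covariate, 4 microRNAs were higher and 13 lower (6.8% in all, against 6.62% of all clusters). This fit kept 15 of the 19, lost *MIR2410*, *MIR502A-1*, *MIR200B* and *MIR449B*, and added *MIR2422* and *MIR677*. Requiring a mean of 5 in both groups, chosen after seeing the data, left 17. Subtracting array medians or quantile normalizing again left 103 of 250 differences positive in place of 91, and moved the median over all clusters from -0.02 to 0.00. The 103 were 41.2%, against 48.3% of all clusters with medians subtracted and 48.9% with quantile normalization. The mean of several clusters per symbol gave the same values, since each symbol has 1. Precision is limited by 8 arrays per group, and for the 10 microRNAs with fewer than 5 probes by their probes.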
